A study of Homo sapiens with 2 samples.

Results

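The genes examined were 10 neuronal guidance and adhesion genes: the L1 family (L1CAM, NRCAM, NFASC and CHL1), the fibronectin leucine-rich transmembrane family (FLRT1, FLRT2 and FLRT3), and the FLRT partners UNC5B, ADGRL1 and ADGRL2. They were chosen because L1CAM and FLRT2 were known to be strongly higher on one of the arrays, so the differences of these genes are given as a description and no test is attached to them. The 10 genes had 24 probe sets that carried their symbol alone, among 19775 genes with such a probe set. In all, 2 groups were compared, with 1 array each. HCC4006ER cells are the erlotinib-resistant derivative, labelled with an EMT phenotype, and were made by exposing HCC4006 cells to erlotinib, a kinase inhibitor of EGFR, for 3 months from 3 nM, with a later increase to 4 μM. HCC4006 cells are the parental line, a non-small cell lung cancer line that is sensitive to erlotinib. Both lines carry the EGFR exon 19 deletion and were grown for 48 hours with no further treatment before the RNA of 3 preparations per line was mixed and hybridized.

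L1 family proteins are single-pass adhesion molecules with immunoglobulin and fibronectin domains outside the cell and a short tail that binds ankyrins inside it. They guide axons and hold together nodes of Ranvier in the nervous system, and L1CAM also appears in several carcinomas, where it has been linked to cell motility. FLRT proteins carry leucine-rich repeats and bind 2 kinds of receptor on neighbouring cells, the netrin receptors of the UNC5 family and the latrophilins, which are adhesion G protein-coupled receptors of the ADGRL family. Latrophilins bind teneurins as well, so FLRT, UNC5, latrophilin and teneurin proteins form a shared adhesion system.

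Signals are MAS5 intensities on a linear scale, as the authors deposited them. A fold is the ratio of the HCC4006ER signal to the HCC4006 signal, and 1.5-fold, the size used in the study's methods, was taken as the threshold. A probe set was called above background where its signal passed the 95th percentile of 127 probe sets for olfactory and bitter taste receptors, at 91.6 on the HCC4006ER array and 96.2 on the HCC4006 array. Where only one side was above background, the dim side was raised to that level and the fold is given as "at least". With both sides dim no fold is given. There was no replicate array, so no difference here has a replicate error. In its place, a pooled SD of 0.27 describes how far probe sets of one gene disagreed in log2 fold (5264 genes). It counts only probe sets above background on both arrays, and leaves out variation between cultures and arrays. The SD between such probe sets was larger for FLRT2 (0.43), FLRT3 (0.40) and ADGRL1 (0.37). Signals of different probe sets are not set against each other, because each probe set responds differently to its RNA.

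The array labels were checked with textbook EMT genes. VIM (vimentin) was 1.53-fold higher on the HCC4006ER array, CDH2 (N-cadherin) 2.05-fold higher and FN1 (fibronectin) 1.66-fold higher, but CDH1 (E-cadherin) read 11041 on the HCC4006ER array and 10469 on the HCC4006 array, and ZEB1, a repressor of CDH1, was under background in all 4 of its probe sets, at 16.6 to 53.1 on the HCC4006ER array and 12.8 to 42.5 on the HCC4006 array. All 6 epithelial markers were above background on both arrays and within 1.5-fold. The names HCC4006ER array and HCC4006 array used here are therefore those of the labels. Giving both arrays a common median moves every log2 fold up by 0.14, and under that scaling the share of lower genes among all genes past 1.5-fold is 37.4%, compared with 58.3% on the deposited scale.

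L1CAM was among the genes with the largest upward differences on the arrays. Its brighter probe set, 204584_at, read 3189.8 on the HCC4006ER array and 405 on the HCC4006 array, a log2 fold of 2.98 and a 7.87-fold higher signal. Both signals were above background, and the log2 fold ranked 8 from the top among 10849 genes measured above background on both arrays. The other L1CAM probe set, 204585_s_at, read 11.3 on the HCC4006ER array and 5.98 on the HCC4006 array and was not well above background on either. The L1CAM difference therefore rests on 1 probe set, and averaged over both, with the dim one at its plain ratio, the log2 fold was 1.95. In pooled RNA, more cells that express a gene and more of its RNA per cell cannot be told apart.

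The remaining L1 family genes showed no signal well above background in any of their 8 probe sets. NRCAM, which takes part in the assembly of nodes of Ranvier, read 63.9 on the HCC4006ER array and 51.1 on the HCC4006 array in its brighter probe set. NFASC (neurofascin), which anchors sodium channel clusters at nodes and axon initial segments, read 50.1 on the HCC4006ER array and 30.9 on the HCC4006 array in the brightest of its 4 probe sets. CHL1, the close homolog of L1, read 2.17 on the HCC4006ER array and 20.1 on the HCC4006 array. Of the L1 family, only L1CAM was thus detected above background with these probe sets.

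FLRT2 showed the second largest upward log2 fold of the 10849 genes above background on both arrays, a ranking that leaves out genes dim on one array, and its 3 probe sets pointed the same way. Probe set 204359_at read 7950.2 on the HCC4006ER array and 534 on the HCC4006 array, which is 14.9-fold higher (log2 fold 3.90). Probe set 204358_s_at read 990.01 on the HCC4006ER array and 102 on the HCC4006 array, 9.75-fold higher. Probe set 240259_at read 522 on the HCC4006ER array and 40.3, under background, on the HCC4006 array, at least 5.43-fold higher. The 2 probe sets above background on both arrays differed from each other by 0.61 in log2 fold, which is small beside log2 folds of 3.28 and 3.90. Averaged over all 3 probe sets, with the dim side of the last raised to background, the log2 fold was 3.21.

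FLRT3 moved in the opposite direction to FLRT2. Its probe set 222853_at read 647 on the HCC4006ER array and 1579 on the HCC4006 array, 2.44-fold lower (log2 fold -1.29). Probe set 219250_s_at read 547 on the HCC4006ER array and 902 on the HCC4006 array, 1.65-fold lower. Both FLRT3 probe sets thus passed 1.5-fold, with log2 folds 0.57 apart. FLRT1 had 1 probe set, which read 52.2 on the HCC4006ER array and 73.9 on the HCC4006 array and was not well above background on either. The FLRT family therefore held 1 gene that was higher, 1 that was lower and 1 that was not detected.

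**Figure D1:**
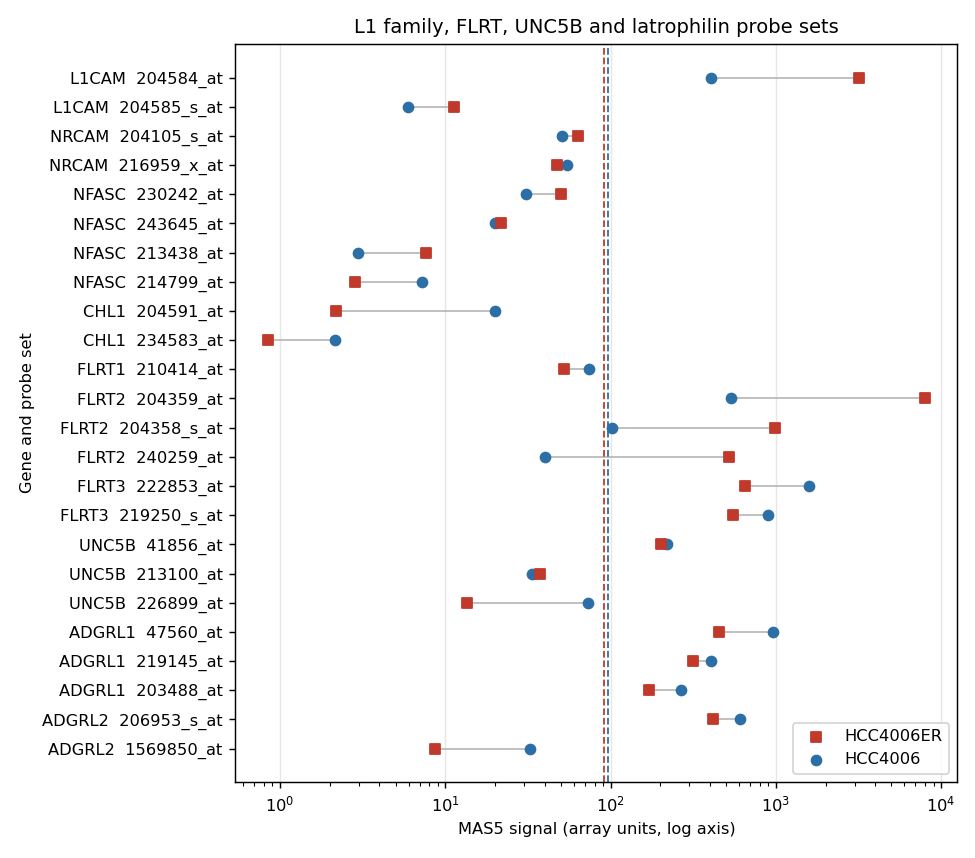
MAS5 signal on a log axis for the 24 probe sets of the 10 genes, with squares for the HCC4006ER array, circles for the HCC4006 array and dashed lines at the background levels of 91.6 and 96.2. The 3 FLRT2 probe sets and the brighter L1CAM probe set lie far to the right on the HCC4006ER array, and the 13 probe sets under both lines have no fold; positions of different probe sets are not comparable with each other.

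The 3 receptors among the 10 genes (ADGRL1, ADGRL2 and UNC5B) were lower or within 1.5-fold. ADGRL1 (latrophilin 1) had 3 probe sets above background on both arrays. Probe set 47560_at read 454 on the HCC4006ER array and 964 on the HCC4006 array, 2.12-fold lower (log2 fold -1.09). Probe set 219145_at read 317 on the HCC4006ER array and 404 on the HCC4006 array, a log2 fold of -0.35, and probe set 203488_at read 171 on the HCC4006ER array and 268 on the HCC4006 array, 1.57-fold lower. All 3 ADGRL1 probe sets read less on the HCC4006ER array, with a mean log2 fold of -0.70 and an SD of 0.37 between them.

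ADGRL2 (latrophilin 2) stood just inside the threshold, with 417 on the HCC4006ER array and 608 on the HCC4006 array in its probe set 206953_s_at, a log2 fold of -0.55. Averaging its 2 probe sets at their plain ratios would put it past the threshold, at -1.23, but the other probe set read 8.62 on the HCC4006ER array and 32.6 on the HCC4006 array, below background. UNC5B, the netrin receptor that FLRT proteins can bind, read 203 on the HCC4006ER array and 220.0 on the HCC4006 array in the 1 of its 3 probe sets above background. Its log2 fold of -0.11 lay within the pooled SD between probe sets and was 0.02, of the other sign, after scaling to a common median.

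In total 6 of the 10 genes were above background on at least one array. Of these, 2 were higher past 1.5-fold (L1CAM and FLRT2), 2 were lower (FLRT3 and ADGRL1) and 2 lay within it, and their median log2 fold was -0.33. Of all 11896 genes with a signal above background, 7.99% passed 1.5-fold upward and 11.2% downward on the HCC4006ER array, with a median log2 fold of -0.04. The genes were chosen on this same contrast, so nothing is read from their share. Over probe sets, 11 of 24 were above background, of which 4 were higher, 4 were lower and 3 lay within 1.5-fold. Of the 13 dim probe sets, 8 passed 1.5-fold by their plain ratio, and so did 48.8% of the olfactory and taste receptor probe sets. Plain ratios of dim probe sets were therefore kept out of the main values. They enter only some of the alternatives, such as the average over all probe sets.

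**Figure D2:**
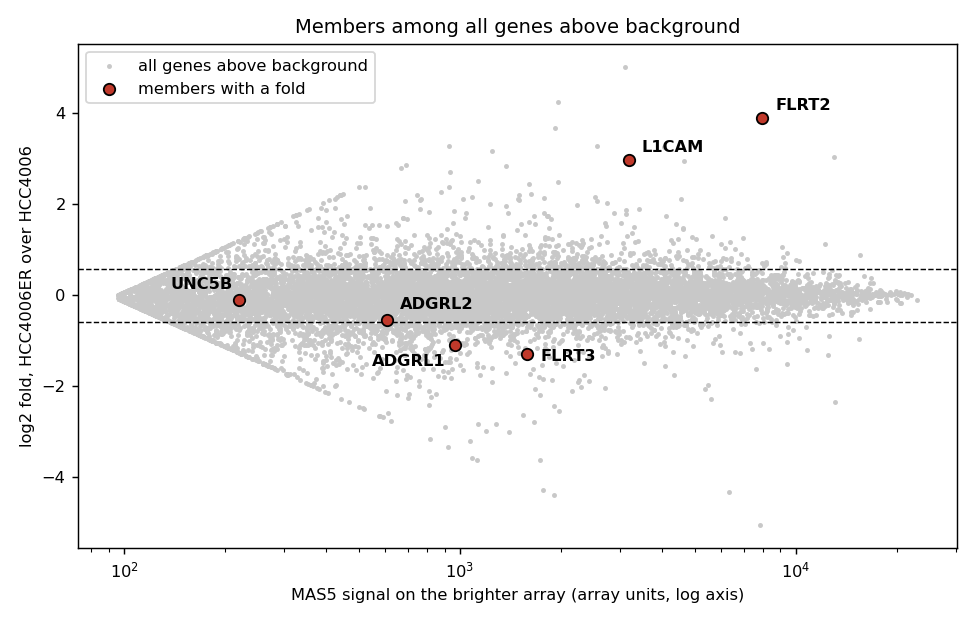
Log2 fold of the HCC4006ER array over the HCC4006 array against the signal on the brighter array (log axis), with 1 grey point for each gene above background, red points for the 6 genes with a fold and dashed lines at 1.5-fold. L1CAM at 2.98 and FLRT2 at 3.90 lie near the top edge, FLRT3 at -1.29 and ADGRL1 at -1.09 lie below the lower line, and the straight edges on the left come from dim signals raised to background.

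The genes whose log2 fold lay nearest to that of L1CAM, among genes of similar brightness on the brighter array, were CLIC3 (2.94), CLDN11 (3.25) and COL8A1 (3.27), against 2.98 for L1CAM. Nearest to FLRT2, at 3.90, were CLDN11 at 3.25, SPARC at 3.03 and CLIC3 at 2.94. CLIC3 belongs to the intracellular chloride channel family, CLDN11 is a claudin, COL8A1 is a collagen chain and SPARC is a matrix glycoprotein. Likeness over 2 arrays means only a similar ratio.

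The sequence upstream of the annotated starts is shown for the 2 genes that were higher and for FLRT3, the family member that was lower. Windows from RefSeq were matched for 8 of the 10 genes, with 24 starts among them, and windows of UNC5B and ADGRL1 were not analysed here. Each line gives the 250 bases before the first listed start on the gene's own strand, 5′ to 3′, in build GRCh38.p14, and the arrays do not tell which start these cells used. The L1CAM window is chrX:153875945-153876194 on the minus strand, the FLRT2 window is chr14:85529894-85530143 on the plus strand and the FLRT3 window is chr20:14337613-14337862 on the minus strand. Capitals mark a GC box (GGGCGG), the letters bound by SP1-type factors.
L1CAM: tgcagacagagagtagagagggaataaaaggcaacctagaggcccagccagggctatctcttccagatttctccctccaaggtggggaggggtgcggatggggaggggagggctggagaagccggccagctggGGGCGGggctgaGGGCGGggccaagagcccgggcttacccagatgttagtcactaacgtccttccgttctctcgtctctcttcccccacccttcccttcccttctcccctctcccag
FLRT2: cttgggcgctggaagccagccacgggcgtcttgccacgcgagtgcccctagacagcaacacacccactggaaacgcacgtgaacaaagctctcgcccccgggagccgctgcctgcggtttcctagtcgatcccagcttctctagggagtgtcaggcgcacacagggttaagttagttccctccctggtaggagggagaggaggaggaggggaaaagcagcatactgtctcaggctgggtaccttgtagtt
FLRT3: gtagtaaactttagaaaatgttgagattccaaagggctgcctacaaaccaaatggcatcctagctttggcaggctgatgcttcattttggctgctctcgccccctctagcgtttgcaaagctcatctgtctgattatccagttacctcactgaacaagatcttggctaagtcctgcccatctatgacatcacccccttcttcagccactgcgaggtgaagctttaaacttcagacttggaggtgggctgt

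Both strands were searched for the GC box, for the E-box CAGGTG that SNAI and ZEB repressors bind, and for the AP-1 site TGANTCA, and no match overlapped another in these windows. The L1CAM window held 2 GC boxes, which begin 117 and 105 bases before the start, while the FLRT2 and FLRT3 windows held none. Among 35116 RefSeq windows of the same length, 42.6% held a GC box, 17.5% an E-box CAGGTG and 6.57% an AP-1 site. Neither of the last 2 motifs was found in any L1CAM, FLRT2 or FLRT3 window. Among the 24 windows of the 8 genes, the E-box stood in 3, for ADGRL2, NFASC and NRCAM, and the AP-1 site in 2, for NRCAM and FLRT1. These are matches of letters only.

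A total of 6 lists of genes that work with these molecules or resemble them were read next. They held 116 genes, of which 110 were measured and 65 were above background, with 12 higher and 5 lower past 1.5-fold. That is 18.5% higher and 7.69% lower, beside 7.99% and 11.2% over all genes above background, and the median log2 fold of the 65 was -0.05 beside -0.04. With a common median for both arrays the lists held 13 higher and 5 lower genes, beside 12.4% higher and 7.40% lower over all genes. Averaged over all probe sets, they held 11 higher and 11 lower genes, beside 10.1% and 14.7% over all genes. Among the genes past 1.5-fold, TENM2, RND1 and SLITRK5 were above background on the HCC4006ER array alone, and CNTN1 on the HCC4006 array alone. The lists were chosen with earlier results of these data known, so nothing is read from their shares.

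Partners of the FLRT, UNC5 and latrophilin proteins included some of the larger differences. Of 10 above background among 20 measured, 4 were higher and 1 was lower, with a median log2 fold of 0.31. Among all genes above background, 7.99% were higher and 11.2% lower, and nothing is read from this count. TENM2 (teneurin 2), a ligand of latrophilins, read 429 on the HCC4006ER array and 18.2, under background, on the HCC4006 array and was at least 4.46-fold higher in its 1 probe set. DAPK1, a death-associated kinase that acts downstream of UNC5B, read 3286 on the HCC4006ER array and 1158 on the HCC4006 array, 2.84-fold higher, and a second probe set was 3.62-fold higher. RND1, a small GTPase that binds FLRT3 in Xenopus, read 148 on the HCC4006ER array and 71.3 on the HCC4006 array, at least 1.53-fold higher. Thus the teneurin and the kinase were the 2 largest differences in this list.

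NEO1 (neogenin), a receptor for netrins and for repulsive guidance molecules, was the 1 gene of that list that was lower. It read 499.9 on the HCC4006ER array and 879 on the HCC4006 array, 1.76-fold lower, and a second probe set was 1.62-fold lower. TENM3 was within 1.5-fold with a log2 fold of 0.53, as was the netrin NTN4 at 0.10, and NTN1, DCC, UNC5C, UNC5D, ADGRL3, TENM1 and TENM4 were not well above background on either array. FGFR1, a receptor that interacts with FLRT proteins and L1CAM, read 587 on the HCC4006ER array and 378 on the HCC4006 array, 1.55-fold higher. All 5 FGFR1 probe sets above background on both arrays read more on the HCC4006ER array, although only 1 of them passed 1.5-fold.

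The binding partners of the L1 family made up another list. Of 16 above background among 25 measured, 2 were higher (ITGAV and FGFR1), 1 was lower (CNTN1) and 13 lay within 1.5-fold. Their median log2 fold was 0.13. Over all genes above background, 19.1% passed 1.5-fold in either direction, so nothing is read from this count. ITGAV, the integrin chain that binds an RGD motif in L1CAM, read 3646 on the HCC4006ER array and 2156 on the HCC4006 array, 1.69-fold higher. CNTN1 (contactin 1), a GPI-anchored partner of L1 family proteins, read 33.0, under background, on the HCC4006ER array and 236 on the HCC4006 array, at least 2.58-fold lower. A second CNTN1 probe set was at least 3.54-fold lower, and 2 more were dim on both arrays. The ankyrin ANK3, which links L1 tails to the spectrin skeleton, had a log2 fold of -0.16, and EZR (ezrin), which also binds the tail, had one of 0.19.

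Proteases that cleave L1CAM and CHL1 were bright on both arrays, and 7 of the 8 measured lay within 1.5-fold. ADAM10, which sheds the L1CAM ectodomain, read 6204 on the HCC4006ER array and 6609 on the HCC4006 array, and BACE1, which cleaves CHL1 in mice, read 1489 on the HCC4006ER array and 1554 on the HCC4006 array. APH1A, a subunit of γ-secretase, read 2206 on the HCC4006ER array and 3769 on the HCC4006 array, 1.71-fold lower. Of 10 known regulators of L1CAM, 7 were above background, with no member past 1.5-fold. SNAI1, ZEB1 and LEF1 were not well above background on either array and had no fold. Since only 19.1% of all genes above background passed 1.5-fold in either direction, nothing is read from this count or that of the proteases. REST, which in mice represses L1CAM outside the nervous system, had a log2 fold of 0.42, SNAI2 had 0.07, TGFB1 had 0.17 and CTNNB1 (β-catenin) had -0.44.

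**Figure D3:**
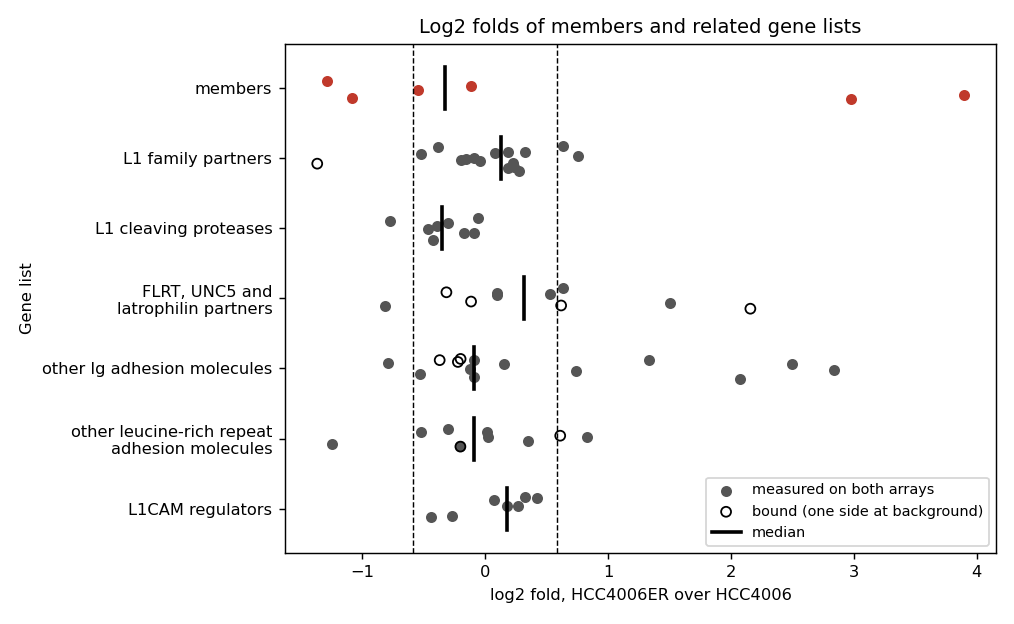
Log2 fold of the HCC4006ER array over the HCC4006 array for the 6 genes with a fold and for members above background of 6 related lists, with filled points for genes measured on both arrays, open circles for bounds, black bars for medians and dashed lines at 1.5-fold. FLRT2 at 3.90 and L1CAM at 2.98 lie farthest to the right, followed by CADM1 at 2.84, and the list of L1CAM regulators has no point outside the lines.

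Other immunoglobulin adhesion molecules held several large differences of the same direction as L1CAM. Of 14 above background among 25 measured, 5 were higher and 1 was lower, while the median log2 fold was -0.09. Read only from probe sets whose names end in a plain _at, 2 genes of this list were higher instead of 5. Over all genes read that way, 8.71% were higher. CADM1, a cell adhesion molecule of epithelia and synapses, read 1373 on the HCC4006ER array and 192 on the HCC4006 array, 7.16-fold higher, and 2 more of its probe sets were 5.73-fold and at least 6.48-fold higher. MCAM (CD146) read 1956 on the HCC4006ER array and 347 on the HCC4006 array, 5.64-fold higher in its 1 probe set above background. NEGR1, a GPI-anchored adhesion protein of neurons, read 688 on the HCC4006ER array and 164 on the HCC4006 array, 4.20-fold higher. Further NEGR1 probe sets were 2.46-fold and at least 2.29-fold higher.

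ICAM1, the ligand of leukocyte integrins, was 2.51-fold higher on the HCC4006ER array, and its relative ICAM2 was 1.66-fold higher. Further ICAM1 probe sets were 2.97-fold and 1.48-fold higher, and a second ICAM2 probe set was 1.48-fold higher, within the threshold. MPZL2, an adhesion protein of epithelia, read 1279 on the HCC4006ER array and 2214 on the HCC4006 array, 1.73-fold lower, and its 2 further probe sets were 1.64-fold and 1.85-fold lower. ALCAM (log2 fold 0.15) and ICAM3 (log2 fold -0.12) were within 1.5-fold. NCAM1 read 82.7, under background, on the HCC4006ER array and 118 on the HCC4006 array, and VCAM1 was dim on both. In this list 5 genes were thus higher, 1 was lower and 8 lay within 1.5-fold. Over all genes above background, 7.99% were higher and 11.2% lower, and nothing is read from the count in this list.

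Among other leucine-rich repeat adhesion molecules, 11 of 24 measured were above background, with 2 higher, 1 lower and a median log2 fold of -0.09. Beside these stand 7.99% higher and 11.2% lower over all genes above background, and nothing is read from the count. LRIG3 read 215 on the HCC4006ER array and 121 on the HCC4006 array, 1.77-fold higher, and SLITRK5 was at least 1.53-fold higher. LRRN2 read 208 on the HCC4006ER array and 493 on the HCC4006 array, 2.37-fold lower, but a second LRRN2 probe set read 112 on the HCC4006ER array and 41.7, under background, on the HCC4006 array. AMIGO2, a leucine-rich repeat protein of the surface, had a log2 fold of -0.53. All of these differed less than FLRT2 at 3.90, but FLRT2 was chosen for its large difference, so nothing is read from that.

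**Figure D4:**
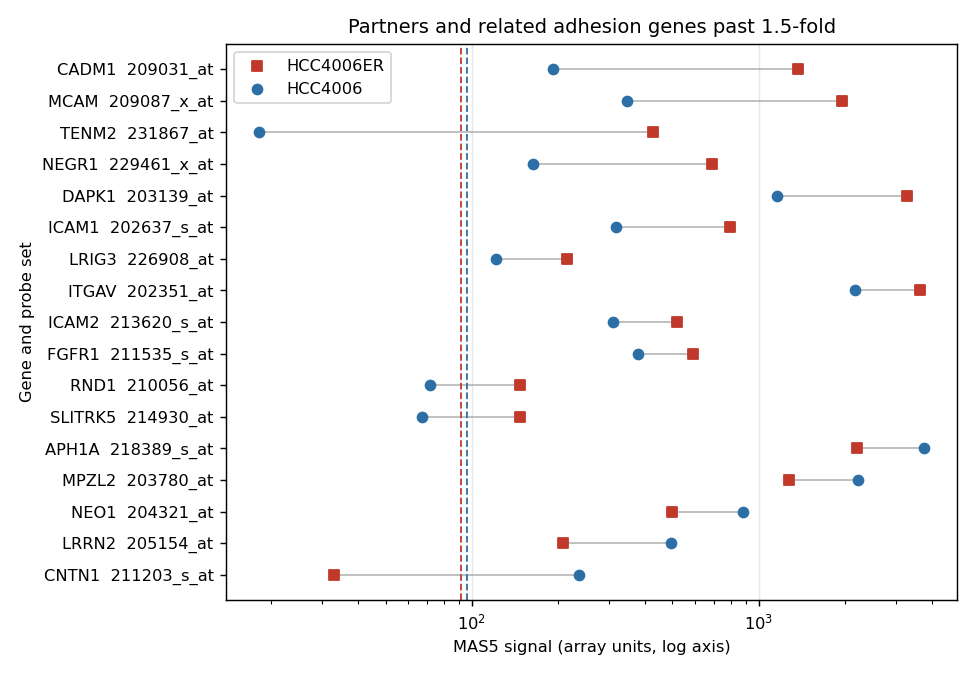
MAS5 signal on a log axis for the 17 genes of the 6 lists past 1.5-fold, ordered by log2 fold from the highest, with squares for the HCC4006ER array, circles for the HCC4006 array and dashed lines at the background levels. The upper 12 genes read more on the HCC4006ER array, led by CADM1, and the lower 5 read less, down to CNTN1, whose square lies under background.

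Because L1CAM, NRCAM and NFASC mark neurons and glia, and MCAM marks vessels, markers of other cell types were read on both arrays. Of 8 neuronal markers, 2 were above background on either array (SNAP25 and SYT1), neither past 1.5-fold, and the summed neuronal signal was 499 on the HCC4006ER array and 576 on the HCC4006 array. Of 4 glial and Schwann cell markers 1 was above background on both arrays (MBP), and of 7 endothelial markers 1 was (PECAM1). Of 5 leukocyte markers, 2 were above background on either array, neither past 1.5-fold. CSF1R read 290 on the HCC4006ER array and 317 on the HCC4006 array. CD3E read 58.6, under background, on the HCC4006ER array and 98.0 on the HCC4006 array. Of 12 fibroblast markers, COL1A1 (965 on the HCC4006ER array and 591 on the HCC4006 array) and FBLN1 (213 on the HCC4006ER array and 299.9 on the HCC4006 array) were above background on both arrays, and THY1 was so on the HCC4006 array alone (40.1 on the HCC4006ER array and 125 on the HCC4006 array). COL1A1 was thus 1.63-fold higher on the HCC4006ER array, past the threshold, while FBLN1 was 1.41-fold lower and THY1 at least 1.37-fold lower. The other 9, LUM, DCN and COL3A1 among them, were under background on both. The summed fibroblast signal, in which COL1A1 was the largest part, was 1449 on the HCC4006ER array and 1410.3 on the HCC4006 array. The part of other cell types in the differences above was not tested.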

How the data were processed

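For each of HCC4006ER and HCC4006, a mix of 3 RNA preparations was hybridized to 1 Affymetrix array, which the methods call HG-U133 and whose probe sets are those of its Plus version. The authors deposited 1 MAS5 signal intensity per probe set on a linear scale (the submitters' notes also name GCOS 1.4), without detection calls, for 54675 probe sets. The mean without 2% of probe sets at each end was 500.1 on both arrays, and the medians were 57.7 for HCC4006ER and 63.4 for HCC4006. MAS5 treats each array alone, so dim signals are noisy. Precision is limited by the number of arrays.

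Genes came from the platform annotation. Of all probe sets, 41097 had 1 symbol and were used, 1801 had several and 11777 were not listed. For 41043, the gene identifier was found in a RefSeq table of GRCh38.p14, and no symbol changed. Each gene was read from its brightest probe set, by mean log2 signal over both arrays. No test was run and no p-value is given, since each group had 1 array. The genes and the related lists were chosen with earlier results of these data known. The text names every one of the 10 genes, and, of each list, up to 4 genes with the largest fold past 1.5-fold and about 2 within it. ICAM2, NTN4, the dim genes and a few further genes within the threshold were named after their values were seen, beyond that rule. The calculation per gene was tested on simulated data. Alternatives were 2 other scalings, 4 choices of probe set, 3 settings of the background level and a 2-fold threshold. Python 3.11.15 with numpy 2.4.6, pandas 2.3.3 and matplotlib 3.10.9 was used.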

Additional observations from a re-analysis of the deposited data

How the results depend on the processing

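L1CAM and FLRT2 were higher, and FLRT3, ADGRL1 and ADGRL2 lower, under every alternative that gave them a value, with log2 folds of 1.95 to 3.11 for L1CAM, 3.21 to 4.03 for FLRT2, -1.30 to -1.004 for FLRT3, -1.09 to -0.70 for ADGRL1 and -1.23 to -0.41 for ADGRL2. UNC5B ran from -0.79 to 0.02. Averaging the measured ratio over all probe sets, dim ones included, gave L1CAM 1.95, ADGRL2 -1.23 and UNC5B -0.79. The median log2 fold over the genes with a fold was then -0.75. That average made 4 of the 10 genes lower instead of 2, and 11 genes of the related lists instead of 5. Over all genes it made 14.7% lower instead of 11.2%. Averaging only probe sets above background gave FLRT2 3.21. Reading each gene from the probe set that differed most gave a median of 0.94, because UNC5B and ADGRL2 were then read from a dim probe set and had no fold. In the related lists, 8 genes were lower with background at the array median, beside 12.6% over all genes. With no floor under dim signals, 21 were higher and 27 lower, beside 13.0% and 23.0% over all genes. At 2-fold, 6 were higher and 2 lower, beside 2.38% and 3.56% over all genes. No array could be left out, and no paired analysis was possible because each cell line had 1 array. What limits these values is the single array per line and, for L1CAM, UNC5B and ADGRL2, a single probe set above background.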
